A study of Homo sapiens with 12 samples.

Results

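The genes described here are the 4 ID genes (ID1, ID2, ID3 and ID4) and 6 of the SMAD genes (SMAD1, SMAD3, SMAD4, SMAD5, SMAD6 and SMAD7), taken by name from the 11963 genes that the arrays measured. They were chosen by measured values of these arrays: the low level of ID1 with digoxin, and the levels of ID2 on opposite sides of DMSO with manassantin and rotenone. For that reason the values of all 10 genes in digoxin against DMSO and in manassantin against rotenone, and every value of ID2 with manassantin or rotenone, are given as a description with no test. Cells of the human breast cancer line MDA-MB231, grown in serum-supplemented DMEM, were kept for 24 h with manassantin, rotenone, digoxin or the solvent DMSO, with 3 Affymetrix arrays in each of the 4 groups. Manassantin is a plant lignan, named manassantin A in the design text; rotenone inhibits respiratory complex I; digoxin, a heart drug that inhibits the cell's sodium-potassium ATPase, is named in the titles where the design text names the related digitoxin. The sources used here give neither doses nor oxygen. All arrays came from 1 cell line, and the labels do not mention independent cultures, so a p-value reflects array-to-array spread, which may be technical. The RNA was taken from whole cultures, in which fewer cells of a type and less RNA per cell cannot be told apart.

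Ligands of the TGF-beta and BMP family bind pairs of receptor kinases that phosphorylate receptor-regulated SMAD proteins. SMAD1 and SMAD5 serve mainly the BMP branch and SMAD3 the TGF-beta and activin branch; each joins the shared partner SMAD4 and enters the nucleus to regulate genes. SMAD6 and SMAD7 are inhibitory SMADs that are induced by the pathway and hold it back, and ID1, ID2 and ID3 are well-known BMP target genes. ID proteins are helix-loop-helix proteins without a DNA-binding region: they pair with E proteins and keep them off DNA, and in breast cancer ID1 and ID3 are known for a part in metastatic growth.

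Values are deposited probe set summaries on a log2 scale, so a difference of 1 is a doubling; each gene is shown by its brightest probe set, and a gene counts as called where limma's Benjamini-Hochberg adjusted p over all genes is under 0.05. Genes whose mean over the arrays lies under the 40th percentile, 5.747, are called dim. Of the 10 genes, 7 were above that level and 3 (ID4, SMAD1 and SMAD6) were dim. No gene was filtered out of the main fit, and all 10 were tested there. An alternative fit without dim genes left out ID4, SMAD1 and SMAD6. Of the mesenchymal markers 8 of 8, among them VIM at 13.24 with DMSO, were above the dim level, under which 40% of all genes lie. The epithelial gene CDH1 (3.553 with DMSO) and the hormone receptor gene PGR (2.323) were dim, as was FOXA1. Other luminal genes were not dim, with 6 of 9 above the level, KRT19, EPCAM, GATA3 and ERBB2 among them. Of 4 blood cell genes 3 were dim, PTPRC among them, while HBB (5.977 with DMSO) was not. With digoxin 5 of the 8 mesenchymal markers fell and 1 rose, and 3 of the 9 luminal ones fell and 3 rose. Digoxin called 26.9% of all genes as lower and 28.0% as higher. Of 4 blood cell markers 0 were called with digoxin, and 2 had an unadjusted p under 0.05, as did 7186 of all 11963 genes. None of the 21 markers was called with manassantin or rotenone against DMSO. Their part in the results was not tested. The 18S rRNA control, the mean of 3 control probe sets, was at 9.831 ± 0.481 (SD, n = 3) with manassantin, 10.01 ± 0.152 with rotenone and 10.08 ± 0.163 with digoxin, against 10.4 ± 0.315 with DMSO. An exact two-sided permutation test against DMSO gave p = 0.3, 0.2 and 0.2 in that order. The smallest p of 3 against 3 is 0.1, so no difference could pass 0.05 and nothing is read from this test. Beyond a fit with this control as a covariate no other test was made.

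**Figure D1:**
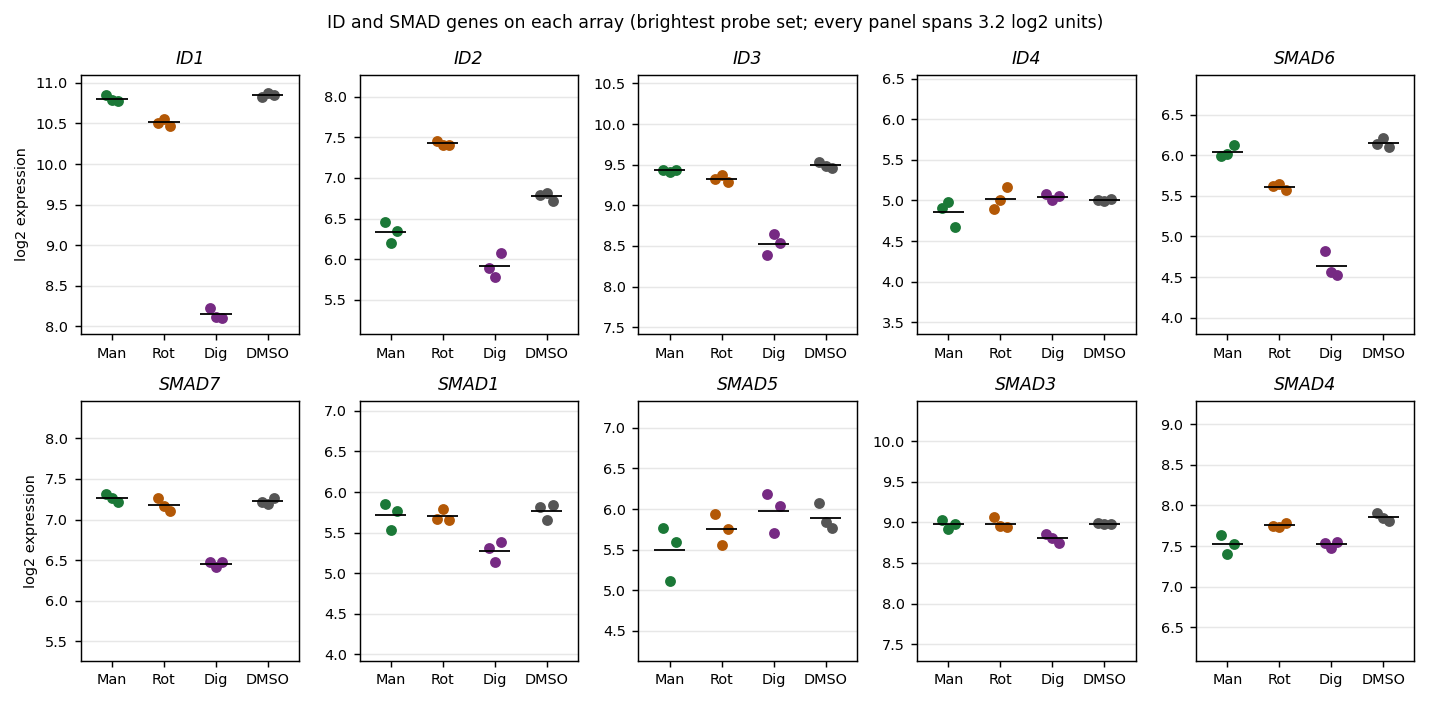
Log2 expression of the 10 genes on each of the 12 arrays, by treatment (Man, manassantin; Rot, rotenone; Dig, digoxin), with points for arrays and black bars for group means; every panel spans the same range. ID1, ID3, SMAD6 and SMAD7 are lowest with digoxin, at group means of 8.152, 8.528, 4.634 and 6.457, and ID2 is highest with rotenone at 7.426.

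Across the 4 treatments ID1 spanned 2.70 log2 units between its highest and lowest group mean, SMAD6 1.52, ID2 1.51, ID3 0.964 and SMAD7 0.809. The other 5 genes spanned 0.488 or less, with ID4 at 0.192 and SMAD3 at 0.177. ID1, ID3, SMAD1 and SMAD6 shared 1 order of group means, DMSO above manassantin, rotenone and then digoxin. ID2 had the order rotenone, DMSO, manassantin, digoxin. For ID2 and ID3 no neighbouring groups overlapped, while for SMAD5 all neighbours did, and for SMAD1, SMAD3 and SMAD7 only digoxin stood apart.

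Digoxin arrays held the lowest values of ID1, ID2 and ID3. ID1 (at chr20:31605289-31606510 on GRCh38.p14) was at 8.23, 8.12 and 8.10 on the digoxin arrays, against 10.82, 10.87 and 10.85 on the DMSO arrays. Every digoxin value was more than 2 log2 units under every DMSO value, and the log2 fold change was -2.70 ± 0.050 (SE, n = 3 arrays per group), or 6.5-fold lower. ID3, which often acts alongside ID1, was at 8.39, 8.65 and 8.54 with digoxin and at 9.53, 9.48 and 9.46 with DMSO. The groups did not overlap, with a fold change of -0.96 ± 0.061. ID2, which restrains differentiation in many cell types, was at 5.89, 5.78 and 6.08 with digoxin and 6.79, 6.81 and 6.71 with DMSO (-0.85 ± 0.080), again without overlap. ID4, the remaining family member, was dim at 5.08, 5.01 and 5.06 with digoxin and 5.01, 4.99 and 5.02 with DMSO, and those groups overlapped (0.04 ± 0.084).

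The inhibitory SMADs, at their brightest probe sets, were also low with digoxin. SMAD6, which mainly restrains BMP receptors, was at 4.82, 4.56 and 4.52 with digoxin and 6.14, 6.21 and 6.10 with DMSO, a fold change of -1.52 ± 0.075. This value is that of the brightest of 4 probe sets: the mean of the 4 gave -0.27, and 1 of the others stood higher with digoxin, at 0.37 ± 0.071. At the brightest, the DMSO level lay above the dim threshold and the digoxin level under it. SMAD7, which restrains receptors of either branch, was at 6.48, 6.41 and 6.48 with digoxin and 7.21, 7.19 and 7.27 with DMSO (-0.77 ± 0.052). For both genes the digoxin arrays lay under all DMSO arrays. ID3 and SMAD7 had the most similar pattern of any of the 45 pairs of these genes, with a root mean square difference of 0.0697 between their 4 centred group means. Genes outside this set lay closer to ID3, SRSF5 at 0.00894 among them.

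Signal-carrying SMADs among the 10 genes differed less with digoxin. SMAD2, a SMAD gene outside the 10, was at 9.01, 9.03 and 8.99 with digoxin and 8.65, 8.62 and 8.63 with DMSO. SMAD2 rose by 0.38 (limma adjusted p = 7.48e-06). SMAD1 was at 5.31, 5.14 and 5.39 with digoxin and 5.82, 5.65 and 5.84 with DMSO (-0.49 ± 0.091); its mean over all arrays is dim, though its DMSO mean, 5.767, is not. SMAD4, the shared partner, was at 7.54, 7.48 and 7.55 with digoxin and 7.91, 7.84 and 7.81 with DMSO (-0.33 ± 0.060). SMAD3 was at 8.86, 8.81 and 8.75 with digoxin and 8.99, 8.98 and 8.98 with DMSO (-0.18 ± 0.051), and SMAD5 overlapped between the groups, at 6.18, 5.71 and 6.04 with digoxin and 6.07, 5.84 and 5.77 with DMSO (0.08 ± 0.17). In all, 8 of the 10 genes were called, 8 lower and 0 higher, where digoxin called 54.8% of all genes, 26.9% as lower and 28.0% as higher. The groups did not overlap for 8 of the 10 genes, against 61.9% of all genes. The median fold change was -0.63 over the 10 genes and 0.07 over all genes. Since ID1 with digoxin helped to choose the genes, nothing is read from these counts.

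Small changes with digoxin depended on the scale. Centring each array on the median of its probe sets left 7 of the 10 called, all lower, where 2689 of all 11963 genes were lower and 5002 higher. Centring on the median of the tested genes, an alternative chosen after seeing the data, moved the median of all genes up by 0.187. It gave 7 lower and 1 higher, where 2158 of all genes were lower and 6952 higher. Under that centring SMAD3 stood at 0.01, ID4 at 0.22, SMAD4 at -0.14 and SMAD1 at -0.30, while the fold changes of ID1, ID2, ID3, SMAD1, SMAD4, SMAD6 and SMAD7 stayed below 0. The values of SMAD1, SMAD3, SMAD4 and ID4 are therefore to be read against that shift.

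**Figure D2:**
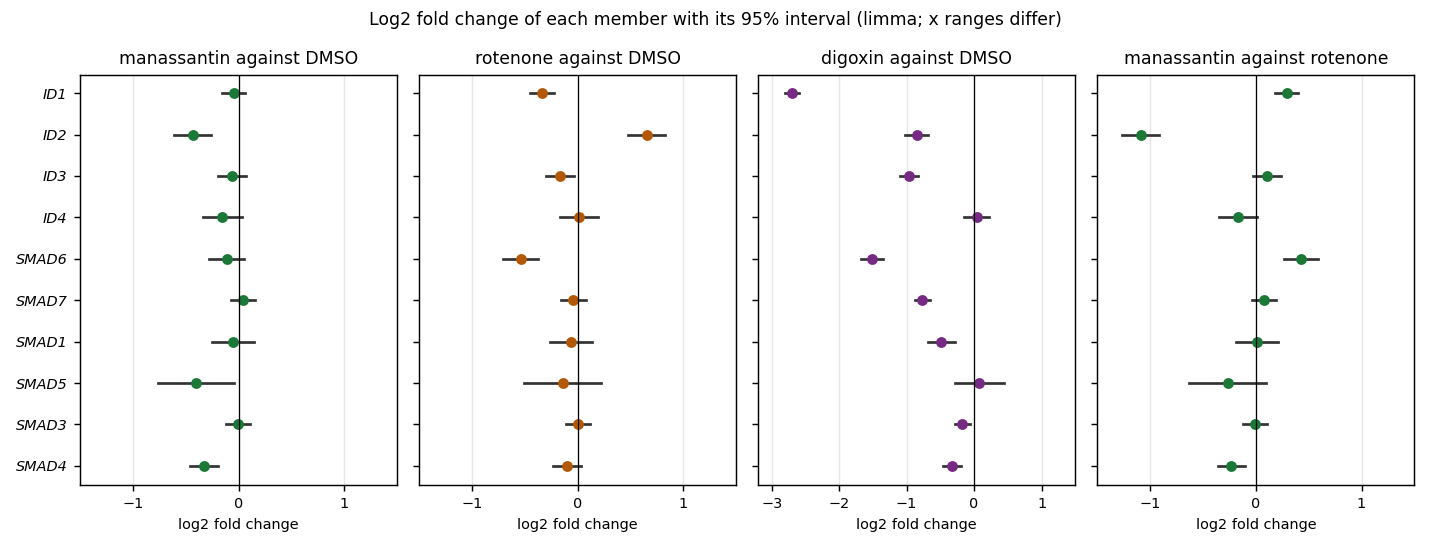
Log2 fold change (x axis) of each gene in 4 comparisons, with points for estimates and bars for 95% intervals from limma; ranges of the x axis differ between panels. Digoxin holds the largest differences, ID1 at -2.70 and SMAD6 at -1.52, and ID2 has opposite signs with manassantin (-0.43) and rotenone (0.65).

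For ID1, ID2, ID3 and SMAD6, the 4 genes whose group means spanned the most, the 250 bases before their annotated starts are shown, from RefSeq on GRCh38.p14, 5′ to 3′ on each gene's strand. They lie at chr20:31605039-31605288 on the + strand for ID1, chr2:8681806-8682055 on the + strand for ID2, chr1:23559502-23559751 on the - strand for ID3 and chr15:66701986-66702235 on the + strand for SMAD6. Capitals mark matches to 5 searched motifs: the SMAD palindrome GTCTAGAC, the GC-rich SMAD element GGCGCC, the CCAAT box and the EGR element GCGNGGGCG on both strands, and TATAAA on the gene's strand.
ID1: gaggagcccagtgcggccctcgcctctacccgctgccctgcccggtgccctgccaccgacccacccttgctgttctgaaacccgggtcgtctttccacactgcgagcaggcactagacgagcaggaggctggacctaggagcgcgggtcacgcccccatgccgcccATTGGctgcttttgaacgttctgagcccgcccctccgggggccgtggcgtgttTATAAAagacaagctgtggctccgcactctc
ID2: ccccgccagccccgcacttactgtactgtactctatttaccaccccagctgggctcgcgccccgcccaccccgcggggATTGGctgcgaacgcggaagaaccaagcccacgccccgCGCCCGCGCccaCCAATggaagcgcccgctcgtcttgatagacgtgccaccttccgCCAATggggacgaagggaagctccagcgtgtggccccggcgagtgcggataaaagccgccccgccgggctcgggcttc
ID3: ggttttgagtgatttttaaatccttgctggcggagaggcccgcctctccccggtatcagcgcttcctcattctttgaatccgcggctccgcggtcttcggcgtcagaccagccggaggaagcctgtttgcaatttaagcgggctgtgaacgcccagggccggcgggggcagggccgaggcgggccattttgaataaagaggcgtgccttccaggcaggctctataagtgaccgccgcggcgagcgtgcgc
SMAD6: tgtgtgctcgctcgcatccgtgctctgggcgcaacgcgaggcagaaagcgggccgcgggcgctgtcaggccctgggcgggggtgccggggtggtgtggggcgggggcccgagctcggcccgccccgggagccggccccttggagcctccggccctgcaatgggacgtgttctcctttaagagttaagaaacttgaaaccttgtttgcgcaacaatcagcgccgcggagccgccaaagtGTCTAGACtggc

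The SMAD6 window held the palindrome once, ending 4 bases before the start; 0.182% of 35116 windows of the same length in the table hold it. ID1 held TATAAA ending 25 bases before the start, where 6.80% of windows hold it, and 1 CCAAT match. ID2 held 3 CCAAT matches, a motif found in 32.0% of windows, and 1 EGR match, found in 8.41%. The GC-rich SMAD element, present in 16.4% of windows, was in none of these 4. No matches to different motifs overlapped, and the ID3 window holds none of the 5. A match is a run of letters in this window, not a shown binding site. All 10 genes had at least 1 window in the table.

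ID1 and SMAD6, the genes with the largest digoxin differences, fell with rotenone by smaller amounts. ID1 was at 10.50, 10.56 and 10.47 with rotenone and 10.82, 10.87 and 10.85 with DMSO. All rotenone arrays lay under all DMSO arrays, and ID1 fell by 0.34 ± 0.050 on the log2 scale (SE, n = 3 each, limma adjusted p = 0.00231). SMAD6 was at 5.62, 5.65 and 5.57 with rotenone and 6.14, 6.21 and 6.10 with DMSO, and fell by 0.54 ± 0.075 (limma adjusted p = 0.00146). Both calls held with each of the 6 arrays left out in turn, at adjusted p up to 0.0148 for ID1 and 0.0104 for SMAD6. The SMAD6 result rests on its brightest probe set: the mean of its 4 probe sets gave -0.06 (limma adjusted p = 0.635).

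ID2 moved the other way with rotenone. It was at 7.46, 7.41 and 7.41 with rotenone and 6.79, 6.81 and 6.71 with DMSO, so that every rotenone array exceeded every DMSO array. The log2 fold change was 0.65 ± 0.080, or 1.57-fold higher, given here as a description. Its second, dimmer probe set stood at 5.29, 4.96 and 5.07 with rotenone and 4.58, 4.37 and 4.49 with DMSO, a log2 fold change of 0.63 ± 0.13.

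The remaining genes did not pass with rotenone. ID3 was at 9.33, 9.37 and 9.29 with rotenone and 9.53, 9.48 and 9.46 with DMSO, and although the groups did not overlap, the difference of -0.17 (95% interval -0.299 to -0.0318) had limma adjusted p = 0.138. It passed only with array weights (adjusted p = 0.0378), and its adjusted p lay between 0.212 and 0.306 with 1 array left out. SMAD7 differed by -0.04 (-0.155 to 0.0739), SMAD3 by 0.00 (-0.111 to 0.114), SMAD1 by -0.06 (-0.261 to 0.137), SMAD4 by -0.10 (-0.229 to 0.0319), SMAD5 by -0.14 (-0.503 to 0.224) and ID4 by 0.01 (-0.170 to 0.195). Of the 10 genes 3 were called, 1 higher and 2 lower, where rotenone called 6.94% of all genes, 3.55% as higher and 3.39% as lower, and the groups were apart for 5 of 10 genes against 31.2% of all genes. The median fold change was -0.08 over the 10 genes and 0.01 over all genes. ID2, among the 3, was chosen for its difference between compounds, so nothing is read from the count.

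Manassantin left ID1, ID3, SMAD6 and SMAD7 near DMSO. ID1 was at 10.85, 10.79 and 10.77 with manassantin and 10.82, 10.87 and 10.85 with DMSO, and the overlapping groups differed by -0.05 (95% interval -0.157 to 0.0633). ID3, at 9.43, 9.41 and 9.44 with manassantin, differed by -0.06 (-0.196 to 0.0708), SMAD6, at 5.99, 6.01 and 6.12, by -0.11 (-0.277 to 0.0519) and SMAD7, at 7.31, 7.26 and 7.22, by 0.04 (-0.0744 to 0.155). None of the 4 passed (limma adjusted p = 0.51 to 0.772), and no end of these intervals lay farther from 0 than -0.277. SMAD1 differed by -0.05 (-0.253 to 0.145), SMAD3 by -0.01 (-0.119 to 0.105) and ID4 by -0.15 (-0.337 to 0.028).

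Leaving ID2 aside, SMAD4 was the gene of the 10 that was called with manassantin. It was at 7.64, 7.40 and 7.53 with manassantin and 7.91, 7.84 and 7.81 with DMSO, without overlap, and fell by 0.33 ± 0.060 (SE, n = 3 each, limma adjusted p = 0.0306). The call was lost without DMSO replicate 1, 2 or 3 (adjusted p = 0.082, 0.0996 and 0.0994) and without manassantin replicate 2 or 3 (0.0923 and 0.0792), and kept without manassantin replicate 1 (0.0335). It was also lost with the 18S control as a covariate (-0.33, adjusted p = 0.265). The other SMAD4 probe set, very dim at 2.78, 2.72 and 2.82 with manassantin and 2.67, 2.91 and 2.75 with DMSO, differed by 0.00 ± 0.087. ID2 was at 6.46, 6.20 and 6.35 with manassantin and 6.79, 6.81 and 6.71 with DMSO, a fold change of -0.43 ± 0.080 that is given as a description, with -0.35 ± 0.13 for its dimmer probe set. The fold change of ID2 lay between -0.49 and -0.37 with 1 of the 6 arrays left out, again as a description with no test.

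SMAD5 had the widest spread of the 10 genes with manassantin. It was at 5.77, 5.12 and 5.59 with manassantin and 6.07, 5.84 and 5.77 with DMSO, a difference of -0.40 (95% interval -0.767 to -0.0401, limma adjusted p = 0.26). Manassantin replicate 2 was the lowest array at both SMAD5 probe sets, and it was also the lowest manassantin array for ID2, ID3, SMAD1, SMAD3 and SMAD4. Replicate 2 was the lowest SMAD5 array with rotenone and digoxin as well. Altogether 2 of 10 genes (SMAD4 and ID2) were called, 0 higher and 2 lower, where manassantin called 0.970% of all genes, 0.853% as higher and 0.117% as lower; ID2 counts among them by the choice of members, so nothing is read from the count, and the groups were apart for 5 of 10 genes against 22.4% of all genes. The median fold change was -0.09 over the 10 genes and 0.01 over all genes.

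**Figure D3:**
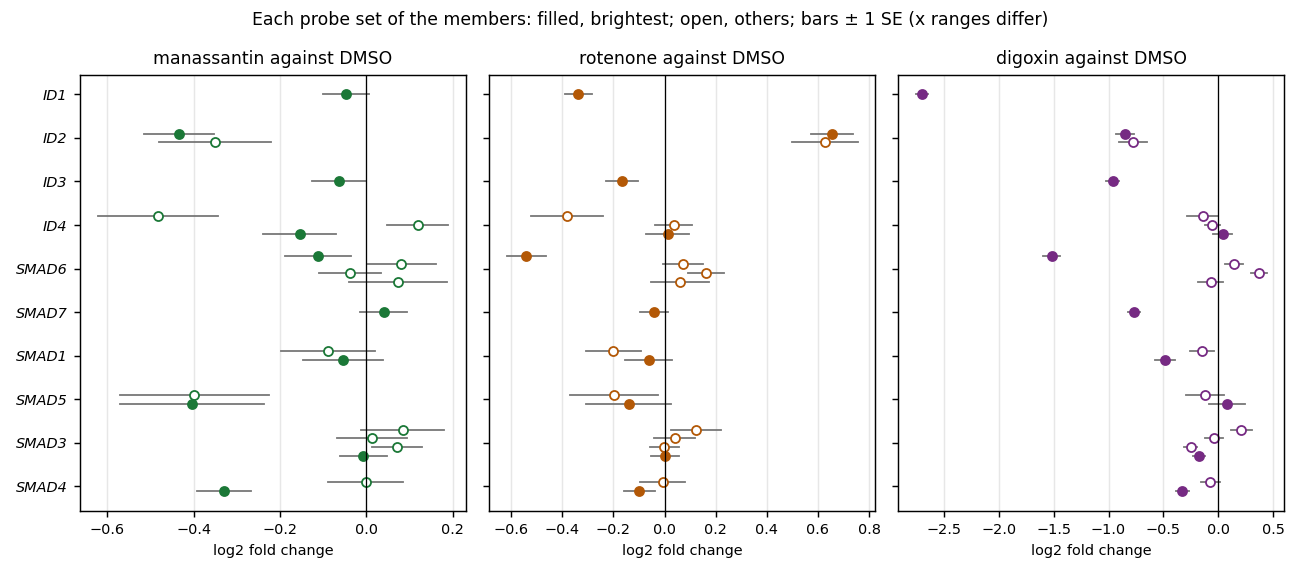
Log2 fold change against DMSO (x axis) for every probe set of the 10 genes, filled for the brightest and open for the others, with bars of 1 SE. The ID2 probe sets lie together in each panel, while SMAD6 holds 1 probe set at -1.52 and others between -0.07 and 0.37 with digoxin.

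Manassantin against rotenone, a comparison that the choice of ID2 used, placed ID2 at 6.46, 6.20 and 6.35 with manassantin and 7.46, 7.41 and 7.41 with rotenone. Every manassantin array lay under every rotenone array, a fold change of -1.09 ± 0.080 or 2.13-fold lower, and the dimmer probe set gave -0.98 ± 0.13. ID1 was higher with manassantin, by 0.29 ± 0.050, and so was SMAD6, by 0.43 ± 0.075, each with no overlap between the groups. SMAD4 was lower at -0.23 ± 0.060. The counts were 2 higher and 2 lower of 10, where 8.47% of all genes were called, 4.69% as higher and 3.78% as lower, and 29.2% of all genes had groups that did not overlap; nothing is read from them.

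Of the 22 probe sets that name 1 of these genes alone, the second ID2 probe set gave values close to the first in all 4 comparisons. ID1, ID3 and SMAD7 have 1 probe set each, so no second reading exists for them here. The 3 other SMAD6 probe sets were dim and did not follow the brightest: with digoxin they stood at 0.14 ± 0.080, 0.37 ± 0.071 and -0.07 ± 0.11, against -1.52 ± 0.075 for the brightest. The dim SMAD1 and SMAD4 probe sets gave -0.15 ± 0.11 and -0.07 ± 0.087 with digoxin, and the 3 other SMAD3 probe sets gave -0.25 ± 0.058, -0.04 ± 0.082 and 0.21 ± 0.097, the last of opposite sign to the brightest.

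Genes of the same pathway were followed from 7 lists of ligands, receptors, antagonists, SMAD regulators, SMAD targets and HLH partners of ID proteins, of which 100 genes besides the 10 were measured. BAMBI, SKIL and PMEPA1 stand in more than 1 list. With digoxin 38 of the 100 rose and 12 fell, beside 28.0% and 26.9% of all genes, and their median fold change was 0.12 against 0.07 over all genes. The split was 48 and 8 with each array centred on its probe set median, where 5002 of all 11963 genes rose and 2689 fell. It was 68 and 4 with centring on the tested genes, where 6952 of all genes rose and 2158 fell. Among the other SMAD target genes 9 of 25 rose and 3 fell, with a median of 0.12. IL11, a cytokine induced by TGF-beta, rose by 3.21 ± 0.15 (limma adjusted p = 5.21e-09), JUNB, an AP-1 subunit, by 1.14 ± 0.093, and CDKN1A, a cell cycle inhibitor, by 0.94 ± 0.072. The other targets that rose were PMEPA1 (0.68), CCN1 (0.55), CCN2 (0.52), THBS1 (0.48), COL4A1 (0.41) and COL1A1 (0.24). LTBP2, which encodes a latent TGF-beta binding protein of the matrix, fell by 0.48 ± 0.088, SNAI2 by 0.27 and BAMBI by 0.22. The SNAI2 call was lost with probe set median centring (limma adjusted p = 0.0532), and the BAMBI call with quantile normalization (0.214).

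Digoxin called 54.8% of all genes, and the shares called in the lists of ligands and receptors are to be read against that. Among TGF-beta, activin and related ligands 5 of 15 rose and 2 fell. GDF15, a stress-induced ligand, rose by 1.25 ± 0.17 and TGFB2 by 0.97 ± 0.082. The activin subunit gene INHBA, dim over all arrays, rose by 0.75 ± 0.088, from 5.351 with DMSO to 6.1 with digoxin. The activin subunit gene INHBB was at 6.27, 5.86 and 6.23 with digoxin and 7.25, 7.42 and 7.30 with DMSO. Its log2 fold change was -1.2 ± 0.094 (limma adjusted p = 4.22e-07), and INHBC fell by 0.27. Of 14 BMP and GDF ligands 5 rose, BMP7 (0.44 ± 0.13) and the dim gene BMP2 (0.44 ± 0.076) among them, and GDF5 fell by 0.37. BMP4, at 10.46, 10.21 and 10.19 with digoxin and 10.54, 10.47 and 10.38 with DMSO, overlapped and was not called (-0.18, limma adjusted p = 0.0501). It passed with quantile normalization (-0.23, limma adjusted p = 0.0213) and stood at 0.01 with centring on the tested genes. With centring on the tested genes neither INHBC nor GDF5 passed (limma adjusted p = 0.270 and 0.0975). Of 12 receptors and co-receptors 7 rose and 1 fell, 5 of the 7 dim (ACVRL1, BMPR1B, TGFBR1, ACVR2B and AMHR2), and with quantile normalization BMPR1B and AMHR2 did not pass (limma adjusted p = 0.0956 and 0.155). The others were ENG (0.42) and ACVR2A, an activin and BMP type II receptor, up by 1.01 ± 0.085; TGFBR2 fell by 0.13 ± 0.053 and changed sign with centring on the tested genes.

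Antagonists and SMAD regulators held the largest single changes after IL11. NEDD4L, a ubiquitin ligase that marks phosphorylated SMADs for degradation, was at 10.71, 10.89 and 10.86 with digoxin and 8.84, 8.98 and 8.95 with DMSO, and rose by 1.89 ± 0.067 (limma adjusted p = 8.39e-10). FST, which encodes the activin and BMP trap follistatin, was at 10.97, 10.92 and 10.91 with digoxin and 9.19, 9.42 and 9.43 with DMSO, and rose by 1.58 ± 0.081. Against 54.8% of all genes called, 4 of 10 antagonists rose and 2 fell, CHRDL1 (-0.51) and BAMBI (-0.22). Besides FST, the antagonists that rose were FSTL3 (0.68), TWSG1 (0.40) and the dim gene CHRD (0.32). Of 19 other SMADs, regulators and co-repressors 7 rose and 4 fell, with SMURF1, a ubiquitin ligase that targets BMP SMADs, up by 0.76 ± 0.059 and its relative SMURF2 at -0.42 ± 0.047. The other genes that fell were WWP1, ZFYVE9 and PPM1A (-0.14, which changed sign with centring on the tested genes). WWP1 and ZFYVE9 did not pass under that centring (limma adjusted p = 0.182 and 0.716). Of 8 HLH partners and related factors 2 rose, HES1 (0.63) and ETS2 (0.58). The E protein genes TCF3, TCF4 and TCF12 were not called in the main fit. TCF12 (0.20, limma adjusted p = 0.0718) passed with probe set median centring (0.0125), quantile normalization (0.0308) and the replicate block (0.0442). With centring on the tested genes TCF12 (0.00155) and the dim gene TCF4 (0.00898) passed as higher, where 6952 of all genes were higher.

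**Figure D4:**
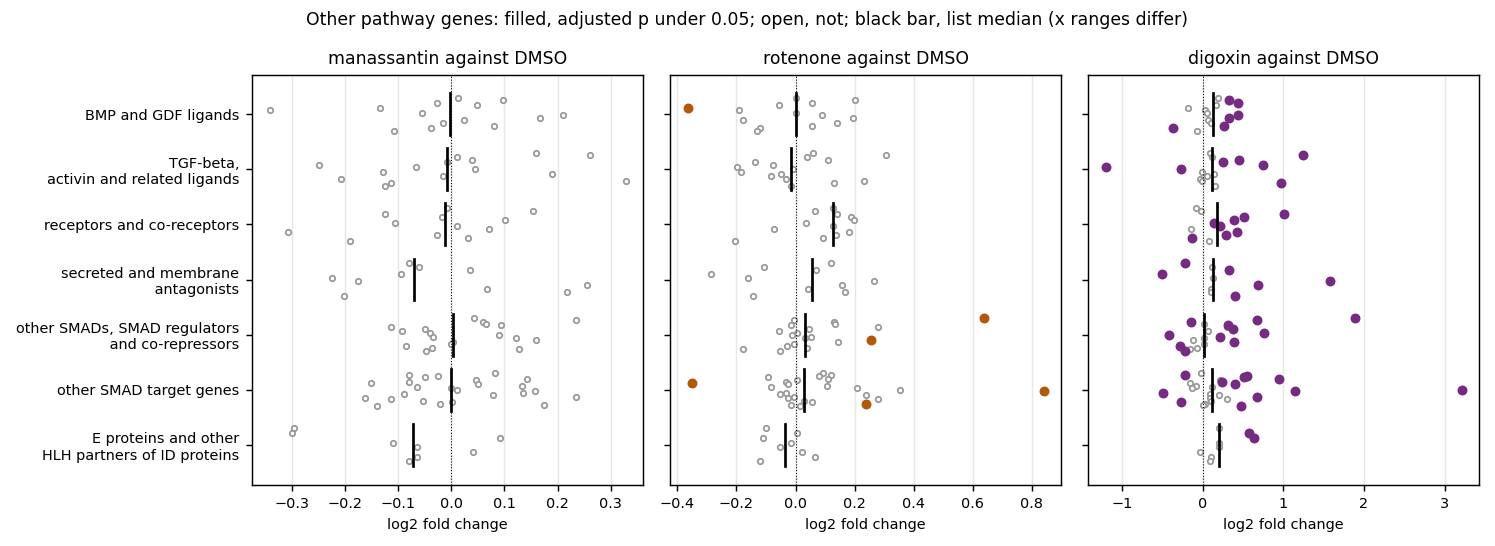
Log2 fold change against DMSO (x axis) of the other pathway genes by list, filled where the adjusted p was under 0.05 and open otherwise, with a black bar at the list median; x ranges differ. With digoxin 50 of 100 genes are filled, with rotenone 6 and with manassantin 0.

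With rotenone 4 of the 100 pathway genes rose and 2 fell, 6 called where 6.94% of all genes were, with a median fold change of 0.03 against 0.01 over all genes. BMP4, a ligand of the branch that drives ID genes, was at 10.12, 10.08 and 10.10 with rotenone and 10.54, 10.47 and 10.38 with DMSO, and fell by 0.37 ± 0.070 (limma adjusted p = 0.0102). NEDD4L rose by 0.64 ± 0.067, JUNB by 0.84 ± 0.093, TGIF1, a SMAD co-repressor, by 0.26 and TAGLN by 0.24, and COL1A2, a dim collagen gene, fell by 0.35. BMP4, NEDD4L and JUNB were called with each of the 6 arrays left out. The count fell to 3 without DMSO replicate 1, DMSO replicate 2 or rotenone replicate 2. In those fits 500, 371 and 346 of all genes were called. TGIF1 and TAGLN were lost with any of the 6 arrays left out.

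With manassantin limma called 0 of the 100 pathway genes, where 0.970% of all genes were called. An unadjusted p under 0.05 was found for 17 of the 100, and for 1896 of all 11963 genes. A robust prior with trend called 4 of the 100, and 503 of all genes. The median fold change of the 100 was -0.01 against 0.01 over all genes. BMP4 was at 10.38, 10.29 and 10.32 with manassantin and 10.54, 10.47 and 10.38 with DMSO, a difference of -0.13 (95% interval -0.287 to 0.0194), and NEDD4L differed by 0.04 (-0.105 to 0.19).

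Set directly against rotenone, manassantin gave 0 higher and 7 lower of the 100 pathway genes, where 8.47% of all genes were called, 4.69% as higher and 3.78% as lower. JUNB stood at -0.68 ± 0.093, NEDD4L at -0.60 ± 0.067, the co-receptor gene ENG at -0.49 ± 0.10, FST at -0.44 ± 0.081, ETS2 at -0.30, TAGLN at -0.26 and BAMBI, a decoy receptor and SMAD target, at -0.20 (limma adjusted p = 0.000447 to 0.032). Same-numbered arrays of these groups deviated together, and with the replicate number as a block 12 were called, 4 higher and 8 lower. That fit called 1352 of all 11963 genes, 763 as higher and 589 as lower. BMP4 (0.23, limma adjusted p = 0.0299) was among the pathway genes gained. Without the block the count was 4 without rotenone replicate 2 or 3 or manassantin replicate 1 or 3, where 500 to 602 of all genes were called.

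Genes with the most similar pattern were found by the root mean square difference between 4 group means, each gene centred on its own mean, among 7177 other genes that were not dim. Nearest to ID1 were DDX60 (0.0677), MTMR4 (0.0847), ATP10D (0.0916), CRYZ (0.0932) and DDIT4 (0.0971), with log2 differences of -2.51 to -2.77 between digoxin and DMSO. ID3 had far closer neighbours, SRSF5 (0.00894), MAP1B (0.0135), NUP133 (0.0147), GALNT11 (0.0149) and CROT (0.0191). ID2 had the most distant ones: BORA (0.129), MTCL2 (0.169), KIF20A (0.225), RBM14 (0.242) and SFPQ (0.259). BORA stood at -0.17 with manassantin, 0.57 with rotenone and -0.77 with digoxin, each against DMSO, beside -0.43, 0.65 and -0.85 for ID2.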

How the data were processed

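MDA-MB231 cells were profiled on 12 Affymetrix arrays, 3 in each of 4 groups, grouped by the sample titles. Per the labels' protocols, total RNA was extracted with Qiagen kits, amplified and labelled with biotin. The authors deposited summary values per probe set, taken here as log2 and on a common scale; the base was inferred from their range (1.655 to 13.75) and array medians (5.881 to 5.995), and the background correction, summarisation and normalization are unstated in these sources. Of 22277 probe sets, 62 were controls; a platform annotation gave 1 symbol for 19064, several for 1043 and none for 2108, and only the first kind was named. The brightest probe set stood for each of 11963 genes. No detection calls were used here, and the number of arrays limits the precision.

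Group differences came from limma 3.58.1 under R 4.3.3, in 1 linear model of the 4 group means over 12 arrays (8 residual degrees of freedom) with eBayes, with Benjamini-Hochberg adjustment over all genes within a comparison and a threshold of 0.05; the procedure was tested on simulated data. The genes and lists were chosen with earlier results of these data known. Of each pathway list up to 4 called genes per comparison were named by size of change, with some others where a sentence counts them. Neighbours were the 5 genes nearest to ID1, ID2 and ID3. Alternatives were each array left out, only the groups compared, the 18S control as a covariate, array weights, a robust prior with trend, all probe sets or their mean, dim genes left out, median centring (on the tested genes: chosen after seeing the data), quantile normalization and a block for the replicate number. Same-numbered manassantin and rotenone arrays deviated together (correlations of deviations 0.107 to 0.362, all over 0.1), which met the criterion for pairing, though no label explains the number. The other comparisons did not meet it. Promoter windows came from RefSeq (GRCh38.p14). Python 3.11.15 with matplotlib 3.10.9 made the figures.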

Additional observations from a re-analysis of the deposited data

How the results depend on the processing

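Of 668 recomputed fold changes of the 10 genes, 636 kept their side of the threshold and, where called, their direction; 29 lost a call, 2 gained one and 1 reversed, SMAD3 with digoxin at 0.0112 when arrays were centred on the tested genes. Signs also changed for 28 values that passed in neither setting. The number of the 10 called with manassantin against DMSO, 2, became 0 with the mean of probe sets, 0 with the 18S covariate, 0 with only the groups compared and 0 to 1 with 1 array left out. Of all genes these settings called 116, 3, 4 and 7 to 25, in that order. Against rotenone, manassantin called 2 of the 10 with the mean of probe sets, and 3 to 4 with 1 array left out, where 984 and 500 to 835 of all genes were called. The counts with digoxin (8) and rotenone (3) against DMSO stayed within 1.5 times in every alternative run. Since ID1 with digoxin and ID2 with manassantin and rotenone chose the genes, nothing is read from these counts of the 10 genes. For the pathway genes, the manassantin count of 0 became 1 with the mean of probe sets, 2 with array weights, 4 with a robust prior with trend and 4 without dim genes. In that order 116, 278, 503 and 491 of all genes were called, the last among 7178 genes. The rotenone count of 6 became 11 with array weights, 3 with the 18S covariate and 3 to 4 with 1 array left out. In that order 1614, 339 and 346 to 500 of all genes were called. The count of 7 between manassantin and rotenone became 11 under each of these 4 settings: array weights, the mean of probe sets, a robust prior with trend, and no dim genes. Of all genes these settings called 1364, 984, 1545 and 1540, the last among 7178 genes. The count was 4 to 8 with 1 array left out, where 500 to 835 of all genes were called. With the replicate block, pathway calls numbered 1 for manassantin against DMSO and 12 for manassantin against rotenone, where 291 and 1352 of all genes were called. The block changed no other count by over 1.5 times and no call of the 10 genes. The cause of these changes was not tested. No detection calls were used, so signal over background limits the dim genes ID4, SMAD1 and SMAD6 in a way not measured here.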

Other observations

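A probe set that the annotation gives to both ID2 and ID2B was left out of the ID2 values. It was at 3.42, 3.47 and 3.44 with manassantin, 3.5, 3.82 and 3.86 with rotenone and 3.39, 3.62 and 3.44 with digoxin, against 3.43, 3.49 and 3.85 with DMSO, and did not show the separation of the ID2 probe sets. An ID4 probe set other than the brightest was at 4.16, 4.46 and 4.31 with manassantin and 4.67, 4.60 and 5.10 with DMSO, a difference of -0.48 ± 0.14 (SE, n = 3 each, limma adjusted p = 0.146 over all probe sets).

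SMAD5 with the replicate number as a block came to limma adjusted p = 0.0503 with manassantin against DMSO, beside 0.26 without it, at the same fold change of -0.40.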
